A study of Mus musculus with 6 samples.

Results

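The genes described here are 10 markers of the connective tissue cells of peripheral nerve: Dcn, Lum, Dpt, Pi16, Dpp4 and Clec3b as genes of fibroblasts in general and of the epineurium, Sox9 and Osr2 as genes of endoneurial fibroblasts, and Cldn1 and Slc2a1 as genes of the perineurium. They were taken by symbol from the table of counts, where 10 of 45703 genes matched. The samples were 6 primary cultures of dorsal root ganglia, which hold the sensory neurons of the spinal nerves and their glia. The donors were C57BL/6 wild type animals, adult at 4 to 6 weeks. Enzyme-digested ganglia grew for 7 days on poly-L-lysine, in DMEM/F12 plus 10% fetal calf serum, EGF and FGF (10 ng/ml), and RNA of 2 dishes made 1 sample. All 6 cultures had the same genotype, medium and age in culture, and the labels name no untreated, fresh or treated counterpart, so replicates were compared with each other. The series calls the cultures biological replicates without saying whether separate animals were used. The spread between these samples may thus be technical in part. P-values for relations across the samples rest on this spread, and those for variation between samples set it against counting noise.

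A nerve is wrapped in layers of connective tissue. The epineurium is the loose outer coat, rich in fibrillar collagen. The perineurium is a sleeve of flattened cells that surrounds each bundle of axons, sealed by tight junctions and supplied with glucose transporters, and forms part of the barrier between blood and nerve. The endoneurium is the space among the axons, where fibroblasts of neural crest origin lie between Schwann cells. Fibroblasts of these layers grow out readily when nerve or ganglion is dissociated and kept in serum.

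The 6 libraries held between 20070639 and 22968642 counts, and scaling factors from the trimmed mean of M-values (TMM) lay between 0.976 and 1.02. Markers of glia and of neurons, the cells that define the labelled tissue, were above 3 counts in every library (8 of 8 and 6 of 6 genes). The summed level of the glial list lay between 5521 and 8039 CPM (counts scaled to a common library total), lowest in replicate 5 and highest in replicate 1. Replicate 1 was lowest and replicate 5 highest in a list of 7 general fibroblast genes that holds no gene described here. The sum of this list ranged from 3321 to 13692 CPM. Of the genes described here, Dcn, Dpt and Sox9 had the same extremes and the others did not. Lists for 3 other cell types had the same extremes. The endothelial sum ranged from 10.5 to 136 CPM, the mural sum from 55.6 to 1056 CPM and the macrophage sum from 12.8 to 132.8 CPM, each lowest in replicate 1 and highest in replicate 5, with 6 of 7 genes of each list above 3 counts in every library. Of 7 meningeal genes, 5 were above 3 counts in every library. The meningeal sum was lowest in replicate 6, at 32.7 CPM, and highest in replicates 1 and 5, at 94.8 and 99.3 CPM. Cldn11 alone gave 76.8 CPM of it in replicate 1, but 3.44 CPM in replicate 5. The others above 3 counts in every library, Foxc1, Tbx18, Crabp2 and Aldh1a2, were each highest in replicate 5. Foxc1 and Tbx18 were lowest in replicate 1, Crabp2 and Aldh1a2 in replicate 6. The neuronal sum was lowest in replicate 5, at 864 CPM, and highest in replicate 3, at 1817 CPM.

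The 10 genes fell into 3 kinds. Dcn, Lum, Dpt and Sox9 were counted in every culture and differed 6.34-fold to 15.7-fold between the lowest and the highest culture. Cldn1 and Slc2a1 were also counted in every culture but differed much less, with 1.23-fold and 1.43-fold between the extremes. Pi16, Dpp4, Osr2 and Clec3b had so few counts that at least 1 library was at or under 3 counts.

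**Figure D1:**
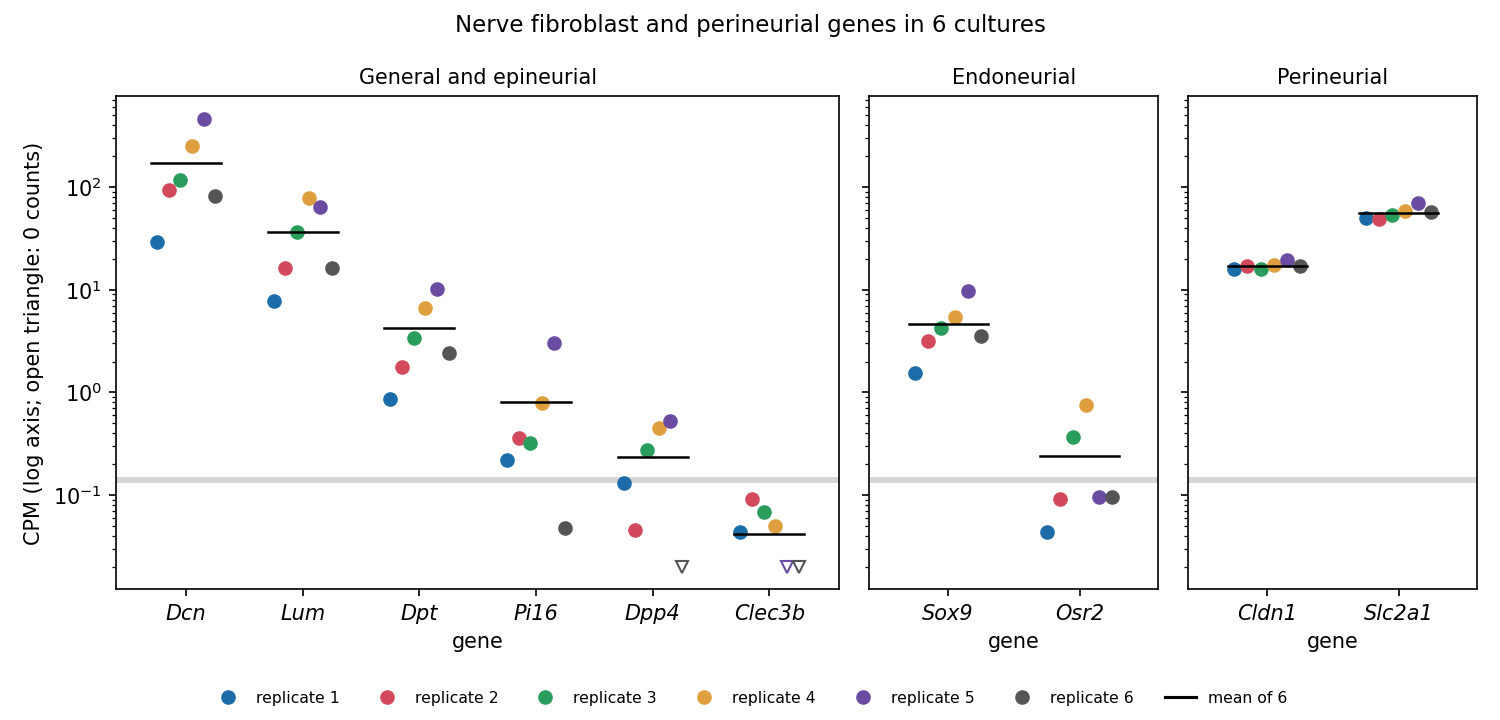
CPM of the 10 genes on a log axis, with 1 point for each of the 6 cultures, a black line for the mean, and a grey band at the CPM that 3 counts give (0.131 to 0.149); an open triangle marks 0 counts. The points of Dcn, Lum, Dpt and Sox9 are spread over the axis, those of Cldn1 and Slc2a1 lie close together, and all points of Clec3b lie under the band.

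Dcn encodes decorin, a small leucine-rich proteoglycan that binds collagen fibrils and is a standard marker of fibroblasts. The gene lies on chromosome 10, 97479500 to 97518163, on the plus strand (GRCm38.p6, RefSeq gene 13179). Its level was 29.3, 93.0, 117.5, 252, 461 and 82.1 CPM in replicates 1 to 6, a mean of 172 ± 160 (SD, n = 6). Replicate 1 had the lowest level and replicates 4 and 5 the highest, and the spread was about as large as the mean. Without replicate 5, the mean was 115 CPM.

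Lum encodes lumican, a keratan sulfate proteoglycan of the same family that also organizes collagen fibrils. It is the neighbour of Dcn on chromosome 10, 97565501 to 97572703, plus strand (gene 17022). Lum stood at 7.75, 16.4, 36.5, 78.9, 63.5 and 16.3 CPM in replicates 1 to 6, with a mean of 36.6 ± 28.9 (SD, n = 6). The highest culture was replicate 4, not replicate 5 as for Dcn.

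Dpt encodes dermatopontin, an extracellular matrix protein that binds decorin and collagen. It lies on chromosome 1, 164796663 to 164824274, plus strand (gene 56429). Levels were 0.871, 1.78, 3.42, 6.68, 10.2 and 2.44 CPM in replicates 1 to 6, with a mean of 4.23 ± 3.54 (SD, n = 6). The order of the cultures was that of a low replicate 1 and high replicates 4 and 5 again.

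Sox9 encodes a transcription factor of cartilage, neural crest and endoneurial fibroblasts. It lies on chromosome 11, 112782210 to 112787757, plus strand (gene 20682), and 2 of its 6 counts were fractional. Its level was 1.55, 3.14, 4.25, 5.43, 9.79 and 3.56 CPM in replicates 1 to 6, a mean of 4.62 ± 2.84 (SD, n = 6). Replicate 5 was highest and replicate 1 lowest, with a smaller range than that of Dcn.

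Cldn1 encodes claudin-1, a tight junction protein used to recognize perineurial cells. It lies on chromosome 16, 26356645 to 26371839, minus strand (gene 12737). Its level was 16.1, 17.1, 15.8, 17.4, 19.4 and 17.0 CPM in replicates 1 to 6, a mean of 17.1 ± 1.28 (SD, n = 6). Counts lay between 342 and 406 in all 6 libraries.

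Slc2a1 encodes GLUT1, the glucose transporter of blood-tissue barriers, which is enriched in the perineurium but is also made by many dividing cells. It lies on chromosome 4, 119108745 to 119137330, plus strand (gene 20525). Its level was 50.1, 48.7, 53.2, 58.2, 69.6 and 57.0 CPM in replicates 1 to 6, with a mean of 56.1 ± 7.57 (SD, n = 6). Replicate 5 was highest, and the other 5 cultures lay between 48.7 and 58.2 CPM.

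The remaining 4 genes were near the limit of detection. Pi16, which encodes a secreted protein of the CAP family and marks adventitial fibroblasts of many organs (chromosome 17, 29318796 to 29328903, gene 74116), had 5, 8, 7, 16, 64 and 1 counts in replicates 1 to 6. In replicate 5 this was 3.06 CPM (95% Clopper-Pearson interval 2.35 to 3.90), above the interval of 0.456 to 1.29 in replicate 4, the next highest culture. The mean of Pi16 was 0.801 CPM, and 0.350 CPM without replicate 5. Dpp4, a membrane peptidase found on the same adventitial cells (chromosome 2, 62330073 to 62412315, gene 13482), had 3, 1, 6, 9, 11 and 0 counts. The interval of replicate 5, 0.262 to 0.940 CPM, lay above those of replicate 2, 0.00115 to 0.254 CPM, and replicate 6, 0 to 0.176 CPM. It overlapped those of replicates 1, 3 and 4.

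Osr2, a zinc finger transcription factor named as a marker of endoneurial fibroblasts (chromosome 15, 35296098 to 35303305, gene 107587), had 1, 2, 8, 15, 2 and 2 counts. It was highest in replicate 4, at 0.747 CPM (0.418 to 1.23), and not in replicate 5, at 0.0955 CPM (0.0116 to 0.345), where Sox9 was highest. Its mean was 0.240 CPM, and 0.139 CPM without replicate 4. Clec3b, which encodes tetranectin, a plasminogen-binding lectin of connective tissue (chromosome 9, 123150946 to 123157432, gene 21922), had 1, 2, 1.5, 1, 0 and 0 counts. All 6 libraries were thus at or under 3 counts, and the upper bounds of the intervals lay between 0.176 CPM in replicates 5 and 6 and 0.333 CPM in replicate 3. All such intervals and limits cover counting error only.

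Levels of different genes were compared per kilobase of combined exon length. The order of mean CPM per kb was Dcn (81.9 ± 75.8), Slc2a1 (20.9 ± 2.82), Lum (17.6 ± 13.9), Cldn1 (5.29 ± 0.394), Dpt (2.47 ± 2.06), Sox9 (1.11 ± 0.685), Pi16 (0.302 ± 0.426), Osr2 (0.133 ± 0.152), Clec3b (0.0426 ± 0.0370) and Dpp4 (0.0267 ± 0.0242; SD, n = 6 for each). Neighbours in this order were compared within each library on the scale log2(CPM per kb + 0.1), with no test. Cldn1 exceeded Dpt by 1.47 ± 1.13, Dpt exceeded Sox9 by 0.86 ± 0.468, and Sox9 exceeded Pi16 by 1.90 ± 0.720, each in 6 of 6 libraries. Dcn exceeded Slc2a1 by 1.46 ± 1.23 and Lum exceeded Cldn1 by 1.29 ± 1.23, each in 5 of 6 libraries and by more than 1 SD. The mean differences of Slc2a1 from Lum (0.67 ± 1.16), Pi16 from Osr2 (0.51 ± 1.33), Osr2 from Clec3b (0.55 ± 0.773) and Clec3b from Dpp4 (0.15 ± 0.512) were smaller than their SD, so these neighbours did not differ beyond their spread. The difference of Pi16 from Osr2 was 0.0029 without replicate 5.

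Within a culture, the ratio of a pair of genes does not depend on the size of the library. The ratio of Slc2a1 to Cldn1, both per kb, stayed between 3.44 and 4.34 in all 6 cultures. The ratio of Dcn to Dpt lay between 27.4 and 42.6. By contrast, the ratio of Dcn to Cldn1 was 2.81 in replicate 1 and 36.6 in replicate 5. Dcn per kb was below Slc2a1 in replicate 1 (ratio 0.745) and above it in the other 5 cultures, up to 8.43 in replicate 5. Lum per kb was above Slc2a1 in replicates 4 and 5 (1.75 and 1.18) and below it in the other 4.

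**Figure D2:**
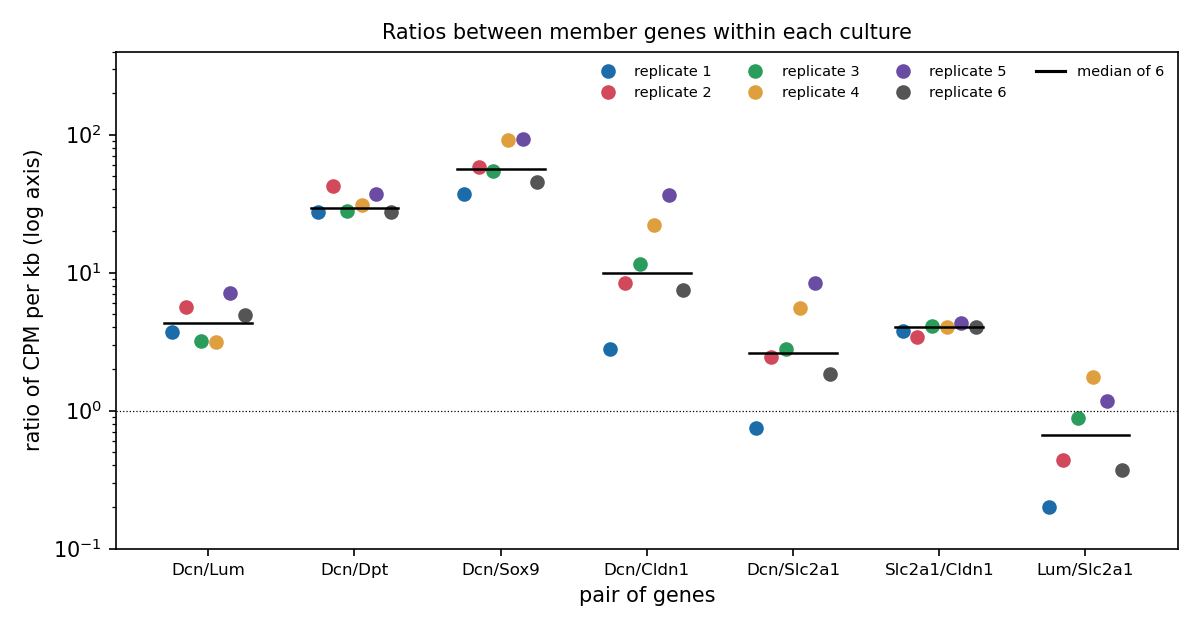
Ratios of CPM per kb between pairs of the genes on a log axis, with 1 point per culture, a black line for the median and a dotted line at equal levels. Slc2a1/Cldn1 spans 1.26-fold and Dcn/Dpt 1.56-fold, while Dcn/Cldn1 spans 13.04-fold and Dcn/Slc2a1 11.3-fold over the same 6 cultures.

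Promoter windows from RefSeq (GRCm38.p6) matched 5 of the 10 genes, Dpt, Pi16, Dpp4, Cldn1 and Slc2a1. Of these, 3 are shown as examples of a gene that varied widely between cultures (Dpt) and of the pair that varied less (Cldn1, Slc2a1). Each window holds 250 bases before and 50 bases from the annotated start, 5′ to 3′ on the strand of the gene, with position 251 as the start. Capitals mark matches on either strand to the TATA box TATAAA, the GC box GGGCGG bound by Sp1, the AP-1 motif TGANTCA, the SOX-type motif ACAAAG or the TEAD-type motif GGAATG. No matches overlapped.
Dpt, chr1:164796413-164796712, plus strand: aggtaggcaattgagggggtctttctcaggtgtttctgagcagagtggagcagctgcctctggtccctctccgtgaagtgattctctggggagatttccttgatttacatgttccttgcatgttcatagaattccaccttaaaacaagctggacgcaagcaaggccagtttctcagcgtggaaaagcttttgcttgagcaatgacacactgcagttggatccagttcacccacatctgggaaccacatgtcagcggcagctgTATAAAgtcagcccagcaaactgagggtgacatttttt
Cldn1, chr16:26371790-26372089, minus strand: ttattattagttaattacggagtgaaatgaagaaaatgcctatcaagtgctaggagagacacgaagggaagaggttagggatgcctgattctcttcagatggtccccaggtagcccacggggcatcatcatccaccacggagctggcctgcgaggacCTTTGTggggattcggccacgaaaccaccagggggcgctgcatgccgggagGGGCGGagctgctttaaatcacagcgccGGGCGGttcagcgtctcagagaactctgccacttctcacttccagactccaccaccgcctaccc
Slc2a1, chr4:119108495-119108794, plus strand: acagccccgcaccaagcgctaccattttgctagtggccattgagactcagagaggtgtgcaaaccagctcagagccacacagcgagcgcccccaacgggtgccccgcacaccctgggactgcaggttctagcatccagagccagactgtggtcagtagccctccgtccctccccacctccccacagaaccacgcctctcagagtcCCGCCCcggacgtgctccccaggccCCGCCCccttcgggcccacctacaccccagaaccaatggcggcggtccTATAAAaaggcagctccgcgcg
The Cldn1 and Slc2a1 windows each held 2 matches to GGGCGG, a motif found in 35.7% of 32851 promoter windows of this length, and the Dpt window held 0. A TATAAA match, present in 13.6% of windows, stood at position 263 in Dpt and at position 279 in Slc2a1, both beyond the annotated start. The Cldn1 window held 1 match to ACAAAG (18.7% of windows), and none of the 3 windows held the AP-1 motif (7.81% of windows) or the TEAD-type motif (14.7%). CpG dinucleotides numbered 4 in the Dpt window, 15 in that of Cldn1 and 18 in that of Slc2a1, against a median of 7 over all windows. The windows of Pi16 and Dpp4 held 3 and 4 CpG dinucleotides and 0 matches to GGGCGG. These are descriptions of letters, not of bound sites.

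The first comparison asked whether these genes differed between replicate cultures by more than counting noise. Of the 10 genes, 6 passed edgeR's filter on low counts, which required counts in all 6 libraries, and 5 of those 6 varied beyond counting noise in a chi-square test of the 6 counts adjusted over all genes. This share says little by itself, because 76.3% of the 14998 genes tested did so. Slc2a1, despite its small range, was among those 5 (chi-square Benjamini-Hochberg adjusted p = 6.1e-19). Cldn1 was the exception, with a chi-square Benjamini-Hochberg adjusted p of 0.0816. It fell below 0.05 without replicate 4 (adjusted p = 0.0393) or replicate 6 (0.0466), and was highest without replicate 5 (0.462).

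The size of the spread set the genes apart more than the test did. The SD of log2 CPM was 1.37 for Dcn, 1.28 for Lum, 1.26 for Dpt and 0.859 for Sox9, against a median of 0.173 over all genes tested. Dcn lay above 98.9% of the tested genes in this SD, Lum above 98.5%, Dpt above 98.5% and Sox9 above 96.8%. Slc2a1, at 0.175, was near the median, and Cldn1, at 0.107, was above 24.1% of genes. Genes with few counts have a larger SD from counting alone, which touches Dpt and Sox9 more than Dcn, since Dpt had 20 and Sox9 35.5 counts in replicate 1.

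When all genes with a count were tested without the filter, Pi16 (adjusted p = 1.61e-33), Dpp4 (0.00279) and Osr2 (1.59e-05) varied beyond counting noise, and Clec3b (0.628) did not pass (chi-square test, Benjamini-Hochberg). The share of all 26854 genes called in this way was 50.2%.

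The second comparison asked which of the genes followed the level of general fibroblast genes in the cultures. An index was formed for each library as the mean log2 TMM-scaled CPM of Col1a1, Col1a2, Col3a1, Pdgfra, Fbln1, Prrx1 and Twist1, genes of collagen synthesis and of mesenchymal identity. Its values were 5.13, 6.78, 6.26, 7.42, 8.58 and 6.44 in replicates 1 to 6. The slope of each gene on this index, in log2 CPM per log2 unit of the index, was tested over all genes by the quasi-likelihood method of edgeR. In bulk RNA, fewer cells of a type and less RNA per cell cannot be told apart.

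Dcn, Dpt and Sox9 rose with the index and Lum, Cldn1 and Slc2a1 did not pass the test. The slope was 1.13 ± 0.116 (SE) for Dcn, with an edgeR Benjamini-Hochberg adjusted p of 0.00355. It was 0.98 ± 0.166 for Dpt (edgeR adjusted p = 0.0207) and 0.70 ± 0.0979 for Sox9 (0.0108). Lum had a slope of 0.91 ± 0.264, similar in size, but with more scatter (edgeR adjusted p = 0.102). The slopes of Cldn1, 0.08 ± 0.0392 (edgeR adjusted p = 0.286), and Slc2a1, 0.13 ± 0.0389 (0.113), were close to 0. Thus 3 of the 6 genes tested were called higher, where 4.35% of all genes were, and 0 lower, where 1.03% were. In either direction 5.37% of all genes were called. Whether slopes differed between members was not tested.

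**Figure D3:**
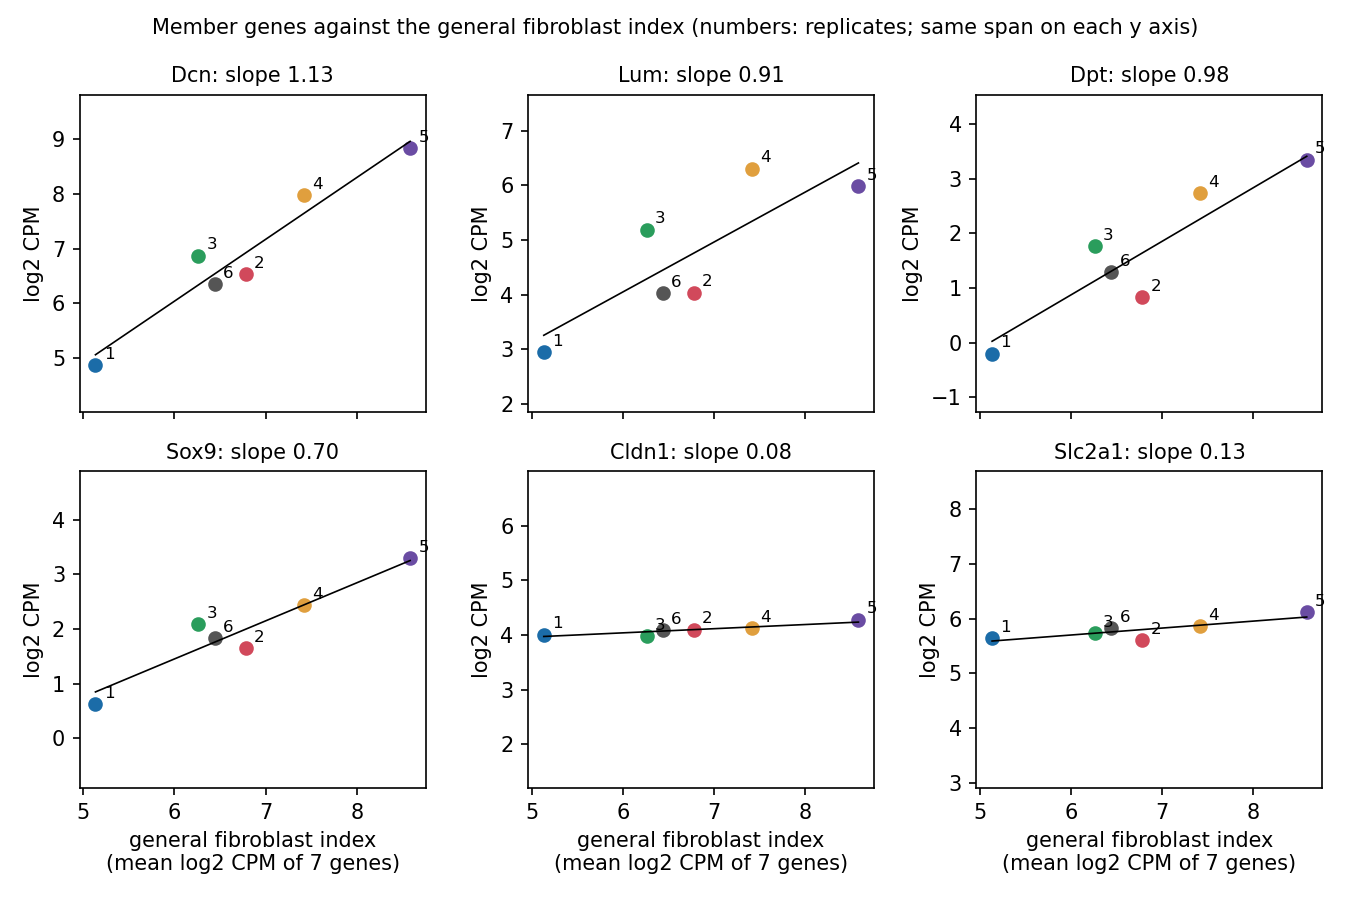
log2 CPM of the 6 genes tested, against the general fibroblast index of each culture, with replicate numbers beside the points, the fitted slope as a line and the same span on every y axis. Dcn is lowest in replicate 1 and highest in replicate 5, the extremes of the index. Its rise is not steady, as replicate 3 lies above replicates 2 and 6, which have a higher index. Lum is highest in replicate 4, and the points of Cldn1 and Slc2a1 lie almost flat.

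These calls rested on the extreme cultures. Without replicate 5, the number of genes called over the whole table fell from 806 to 29, and the edgeR adjusted p of Dcn became 0.0861, that of Dpt 0.284 and that of Sox9 0.296, with slopes of 1.26, 1.13 and 0.70. Without replicate 1, Dcn passed (0.0234), while Dpt (0.0793) and Sox9 (0.0517) did not. Dpt also missed the threshold without replicate 4 (0.0514), when 369 genes were called, and without replicate 6 (0.0509). DESeq2 called Lum too (adjusted p = 0.0311), with 7.15% of genes called higher. Endothelial, mural and macrophage sums were lowest and highest in the same libraries, and their part in these slopes was not tested. Single genes of such lists also rose with the index: 2 of 5 endothelial, 1 of 5 mural, 0 of 6 macrophage and 2 of 5 meningeal genes tested. Median slopes of these lists were 0.93, 0.76, 0.78 and 0.72. Endothelial Cdh5 had a slope of 1.24 ± 0.102 (edgeR adjusted p = 0.00182). A rise with the index was thus not particular to fibroblast genes.

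As correlations over the 6 libraries, Pearson's r with the index was 0.97 for Dcn (exact permutation p = 0.00556, adjusted over all genes 0.144) and Spearman's rho was 0.83 (exact permutation p = 0.0583, adjusted 0.353). For Dpt, r was 0.92 and rho 0.77 (exact permutation p = 0.0139 and 0.103, adjusted 0.171 and 0.403). For Sox9, r was 0.96 and rho 0.77, with the same permutation p-values. Lum had r = 0.83 and rho = 0.77 (exact permutation p = 0.0389 and 0.103, adjusted 0.227 and 0.403). Cldn1 had r = 0.83 and rho = 0.89 (exact permutation p = 0.0583 and 0.0333, adjusted 0.262 and 0.338), and Slc2a1 r = 0.84 and rho = 0.66 (exact permutation p = 0.0444 and 0.175, adjusted 0.240 and 0.508). A high r thus went with a small slope for Cldn1 and Slc2a1: their small differences had the same direction. Permutation of 6 libraries cannot give a p under 0.00139, and 0 of 14998 genes passed after adjustment, with 2975 at an unadjusted p under 0.05. Over the 4 libraries left when the extremes of the index, replicates 1 and 5, were dropped, r was 0.82 for Dcn, 0.64 for Lum, 0.62 for Dpt, 0.61 for Sox9, 0.63 for Cldn1 and 0.38 for Slc2a1. The labels name no batch, so no value within batches could be given.

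Of the 4 genes under the filter, Pi16 had a slope of 1.36 ± 0.249 when all genes with a count were tested (edgeR adjusted p = 0.0204, where 3.01% of genes were called higher). This call rested on 64 counts in replicate 5: without it, the slope was 0.86 and the edgeR adjusted p 0.697. Without replicate 4 the adjusted p was 0.0535. Dpp4 (0.71 ± 0.401), Osr2 (0.41 ± 0.523) and Clec3b (-0.40 ± 0.602) did not pass, with edgeR adjusted p-values of 0.405, 0.767 and 0.810.

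Relatives of the marker genes were read from lists that, like the members, were chosen with earlier results of these data known. Counts of calls within them are thus descriptions. Among 12 other small leucine-rich proteoglycans, the family of Dcn and Lum, 8 were tested, 3 rose with the index and 5 did not pass, with a median slope of 0.76 against -0.01 over all genes tested. Bgn, which encodes biglycan, was the highest of them, at 367 ± 311 CPM per kb, and rose with a slope of 1.18 ± 0.191 (edgeR adjusted p = 0.0177). Epyc, which encodes epiphycan, rose by 0.92 ± 0.142 per unit (0.0148), and Podn, which encodes podocan, by 0.76 ± 0.128 (0.0202). Chad, which encodes chondroadherin, had 0 counts in every library.

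Dcn and Lum lie in a run of 4 genes of this family within 202 kb of chromosome 10, in the order Dcn, Lum, Kera and Epyc, all on the plus strand. Kera, which encodes keratocan of the cornea (97606962 to 97613688), had 1, 17, 16, 22, 67 and 6 counts in replicates 1 to 6, a mean of 1.02 ± 1.13 CPM (SD, n = 6). Epyc (97644068 to 97681908) averaged 3.85 ± 2.85 CPM, from 0.914 in replicate 1 to 8.03 in replicate 5. All 4 were lowest in replicate 1, and 3 of them were highest in replicate 5. Per kb, mean levels ran from 81.9 CPM for Dcn through 17.6 for Lum to 0.474 for Kera and 1.93 for Epyc. The other 2 genes in this stretch, both non-coding RNAs, had 0 counts.

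Other genes of Pi16-type adventitial fibroblasts all had higher mean CPM per kb than Pi16, Dpp4 and Clec3b. Of these 7 genes, 6 were tested and 2 rose with the index, with a median slope of 0.11. Mfap5, a microfibril protein, averaged 35.5 ± 35.3 CPM (slope 1.28 ± 0.155, edgeR adjusted p = 0.00620), and Cd248, the membrane protein endosialin of fibroblasts and pericytes, 57.9 ± 54.7 CPM (slope 1.28 ± 0.170, edgeR adjusted p = 0.00877). Anxa3, a calcium-binding annexin, was highest per kb at 54.0 ± 15.5 CPM, and Ly6c1 lowest at 0.491 ± 0.213 CPM.

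For the endoneurium, 5 of 8 further genes were tested and 0 rose, while 1 fell. Wif1, Meox1 and Osr1 were under the filter on low counts and not tested. Sox6, a SOX factor that glia of these ganglia may also express, fell with the index by 0.30 ± 0.0391 per unit (edgeR adjusted p = 0.00790), with 194.5 CPM in replicate 1, its highest level, and 89.7 CPM in replicate 5, its lowest. Abca9, a lipid transporter, was highest per kb at 3.15 ± 0.480 CPM. Wif1, a secreted Wnt inhibitor and the lowest of the list per kb, had a level between 0.174 CPM in replicate 1 and 5.64 CPM in replicate 5.

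For the perineurium, 3 of 7 further genes were tested and 0 passed in either direction. Itgb4, the laminin receptor subunit beta 4, shared by perineurial and Schwann cells, was the highest, at 452 ± 91.96 CPM, with a slope of -0.16 ± 0.103 (edgeR adjusted p = 0.389). Lypd2, another perineurial marker, had 0 counts in every library. Tenm2, Msln and Krt19 were also under the filter on low counts and not tested. Msln lay between 0.0435 CPM in replicate 1 and 3.25 CPM in replicate 5, and Krt19 between 0 and 2.63 CPM in the same cultures. Tenm2 was lowest in replicate 5, at 0.191 CPM. Ntn4, which was tested, ranged from 6.14 to 34.7 CPM (slope 0.43 ± 0.264, edgeR adjusted p = 0.370). These values were chosen after they were seen. Of 12 tight junction genes other than Cldn1, 6 were tested and 0 passed, with a median slope of -0.02. Tjp1, which encodes the scaffold ZO-1, was the highest, at 236 ± 7.91 CPM, and Cldn3 had 0 counts in every library.

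Among 7 other facilitative glucose transporters, 6 were tested and 0 passed. Slc2a3, the high-affinity transporter GLUT3 of neurons, was the highest per kb at 8.46 ± 1.28 CPM, below Slc2a1 in each of the 6 libraries, and Slc2a12 the lowest at 0.153 ± 0.0987 CPM.

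Each relative of Dpp4 had a higher mean CPM per kb than Dpp4, and each relative of Pi16 a higher one than Pi16. All 6 other dipeptidyl peptidase genes were tested and 1 rose, Fap, which encodes fibroblast activation protein, the nearest relative of Dpp4. It averaged 8.36 ± 7.49 CPM with a slope of 1.08 ± 0.0996 (edgeR adjusted p = 0.00241). Dpp8, a cytosolic peptidase, was the highest per kb at 43.03 ± 3.18 CPM, and Dpp10 the lowest at 0.157 ± 0.0595 CPM. Of 5 other CAP domain genes, all were tested and 4 rose: Pi15 (slope 1.41 ± 0.157), Glipr1 (1.13 ± 0.239), Crispld1 (0.81 ± 0.107) and Glipr2 (0.50 ± 0.0519), with edgeR adjusted p-values of 0.00460, 0.0436, 0.00855 and 0.00357. Glipr2 was the highest per kb at 25.3 ± 11.1 CPM, and Crispld1 the lowest at 0.637 ± 0.423 CPM.

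**Figure D4:**
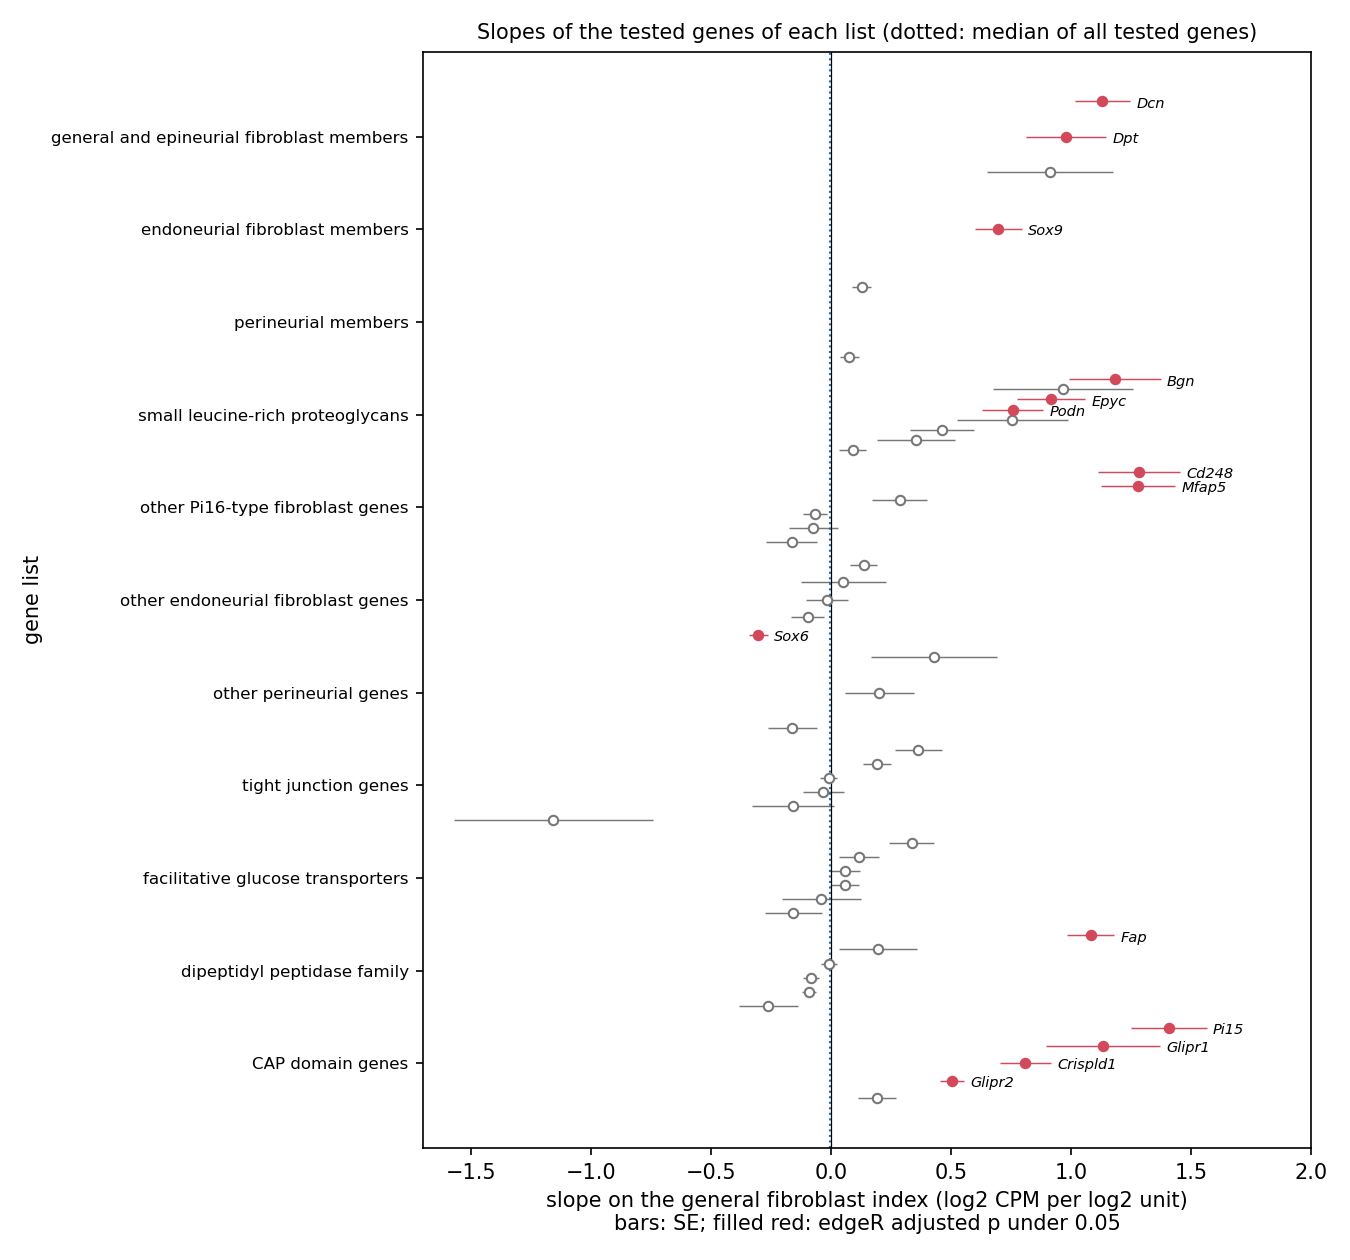
Slope of each tested gene on the general fibroblast index (x axis, log2 CPM per log2 unit, bars for the SE), by gene list, with genes of adjusted p under 0.05 filled in red and named. Proteoglycan and CAP domain genes have positive slopes throughout, while tight junction and glucose transporter genes lie on both sides of 0 with 0 genes called.

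For 6 of the genes, those with a mean of at least 1 CPM, the genes with the most similar profile were ranked by Pearson's r of log2 CPM over the 6 libraries, among 10837 named protein-coding genes with at least 5 CPM. For Dcn these were Enpep, Cx3cl1 and Cd53 (r = 1.00 each to 2 decimals), where 319 genes had r above 0.95. For Lum they were Sbsn (1.00), Chid1 (1.00) and Cep41 (0.99), with 55 genes above 0.95. For Dpt they were Bmp1 (1.00), which encodes a procollagen peptidase, Fkbp14 (1.00) and H6pd (1.00), with 275 genes. For Sox9 they were Fstl1, Ergic1 and Snai2 (1.00 each), the last a transcription factor of mesenchyme and neural crest, with 382 genes. For Cldn1 they were Copa (0.99), Pmm2 (0.99) and Yap1 (0.99), with 52 genes, and for Slc2a1 Ryk (0.99), Flna (0.99) and Ctps (0.99), with 40. With only 6 libraries, and replicates 1 and 5 as the extremes for Dcn, Dpt and Sox9, such values are common. Moreover, r says nothing of the size of the differences. Sbsn ranged only from 7.84 to 11.9 CPM while Lum ranged from 7.75 to 78.9 CPM.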

How the data were processed

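RNA from 6 day 7 cultures was sequenced as poly-A libraries. Per the submitters' processing notes, bcl2fastq 2.20.0.422, cutadapt 2.5, STAR 2.7.2b, featureCounts 1.6.4 and GRCm38.p6 were used; strand and multi-mapping settings are not given in the sources used here. The deposited values were estimated counts per gene, unscaled, of which 13.4% to 14.7% per library were not whole. The deposited combined exon length gave CPM per kb, computed here. Columns were matched to samples by description, and 0 further sample columns were present.

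With R 4.3.3, counts were rounded, then analysed in edgeR 4.0.16 or, as an alternative, DESeq2 1.42.0, filtered with filterByExpr (minimum count 10; 14998 genes) and TMM-scaled. CPM in the text uses library totals. The chi-square test set counts against scaled library sizes; slopes came from glmQLFTest; both were adjusted by Benjamini-Hochberg. Permutations covered all 720 orders, two-sided. On simulated counts for 14998 genes, the chi-square test recovered 100 of 100 genes changed 3-fold in 1 library and 86 of 100 changed 1.5-fold, with 15 other calls, and the slope test 100 of 100 genes of slope 1 and 90 of 100 of slope 0.5, with 7 other calls. Simulated counts were Poisson for the first test and negative binomial for the second, drawn independently between genes. They do not show how many calls are false in the real libraries, where genes varied together. Of a related list, the highest and lowest gene per kb and those past the slope test were named. Members and lists were chosen with earlier results of these data known. Overlapping antisense genes of Dpt, Pi16 and Slc2a1 averaged at most 0.5 counts. Alternatives were other scalings, filters, roundings, tests, indices and pseudocounts, and leaving out replicates.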

Additional observations from a re-analysis of the deposited data

Results flagged for a closer look

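Dixon's ratio, the gap from the most extreme culture to the next over the whole range, was taken for 46 measures. It passed the 95% limit for 6 samples in 5 measures, and in each the extreme was the highest value, in replicate 5. About 2.3 would pass by chance among 46 independent measures. These measures were related, and some genes were included because they passed the slope test, whose calls rested on replicate 5. The 5 measures therefore cannot be set against that number. Pi16 stood at 3.06 CPM against 0.797 CPM in the next culture, a ratio of 0.751. Pi15 stood at 20.8 against 3.39 CPM (0.878) and Kera at 3.20 against 1.10 CPM (0.667). The endothelial marker sum stood at 136 against 47.8 CPM (0.703). The general fibroblast marker sum stood at 13692 against 7205 CPM, a ratio of 0.6255 that only just passed.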

How the results depend on the processing

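The number of genes that followed the fibroblast index, 806, was 1632 with DESeq2 and 0 by exact permutation of r (2975 at an unadjusted p under 0.05). It lay between 29 (without replicate 5) and 913 (without replicate 2) when single replicates were left out. With both replicates 1 and 5 left out, chosen as an alternative after seeing the data, it was 0 with edgeR (533 at an unadjusted p under 0.05); only 4 libraries remained. The other alternatives gave 564 to 970 genes except without replicate 4 (369). Slopes of the 6 genes tested stayed positive in every alternative run, and 14 of these alternative values lost a call and 1, Lum with DESeq2, gained one. With the index from summed CPM, Dpt had an edgeR adjusted p of 0.0707. The number of genes varying beyond counting noise, 11444, lay between 10083 and 13488 in all 10 alternatives. Mean levels moved by less than 1 SD in all 70 alternatives, but this count says little. Leaving out 1 of 6 libraries cannot move a mean by 1 SD, so only TMM-scaled CPM could have done so. Means moved by over 1.5 times for Dcn (172 to 115 CPM) and Pi16 (0.801 to 0.350 CPM) without replicate 5. Osr2 (0.240 to 0.139 CPM) did so without replicate 4. Differences between neighbours moved by less than 1 SD in 62 of 63, which again says little where a replicate was left out. The exception was Sox9 minus Pi16, 0.69 in place of 1.90 with a pseudocount of 1, which compresses low values. No paired analysis was possible because all samples form 1 group. Depth limited Clec3b, Dpp4, Osr2 and Pi16.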

Other observations

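Cldn11, a claudin of myelin and of the arachnoid and the tight junction gene with the widest range here, was chosen after its values were seen. It was at 76.8, 57.9, 10.1, 8.72, 3.44 and 13.4 CPM in replicates 1 to 6. It was thus highest in replicate 1 and lowest in replicate 5, the reverse of Dcn, while Cldn1 stayed between 15.8 and 19.4 CPM. Its slope on the fibroblast index, -1.16 ± 0.415, did not pass (edgeR adjusted p = 0.154).

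Genes of the endoneurial list that were under the filter on low counts also had wide ranges. Meox1 lay between 0.0871 CPM in replicate 1 and 6.78 CPM in replicate 4, and Osr1, the relative of Osr2, between 0.218 CPM in replicate 1 and 6.69 CPM in replicate 5. Osr2 itself was highest in replicate 4, as Meox1 was. These values were also chosen after they were seen and were not tested.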
